A study of Homo sapiens with 3 samples.

Results

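This report describes 8 transcription factors that set the identity of pancreatic cells and of pancreatic cancer subtypes, namely GATA6, HNF4A, PDX1, SOX9, FOXA1, FOXA2, KLF5 and TP63. They were chosen by name, and each of the 8 symbols has its own row among the 51136 genes of the deposited count table, so that none was absent from it. The cells were PANC-1, an established human cell line from a pancreatic ductal carcinoma, profiled by RNA-seq in 3 libraries. The control library came from cells with no agent, the Rg3 library from cells given 200 μM Ginsenoside Rg3 for 24 h, and the TAM library from cells given 50 μM tamoxifen for 24 h. Ginsenoside Rg3 is a saponin of ginseng with antiangiogenic activity, and tamoxifen (TAM) is an antiestrogen that also inhibits the PKC pathway. The comparisons ask how the transcriptome of these cells looked after each agent. The labels do not say whether the control cells received a solvent. There was 1 library for each condition, so no difference below has a replicate check, and the 95% intervals cover counting error only.

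In the developing gut, FOXA1 and FOXA2 are pioneer factors that open chromatin, and GATA6 and PDX1 act with them to specify the pancreas. SOX9 maintains progenitors and later marks duct cells, PDX1 becomes a factor of insulin-producing cells, and HNF4A drives epithelial genes of gut, liver and islets. In pancreatic carcinoma, GATA6 and HNF4A are associated with the classical, gland-like subtype, while TP63 drives the squamous program of basal-like tumors. KLF5 is a factor of epithelial growth that is used in low-grade tumor cells.

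The bases before the RNA start are shown for 4 of these genes, KLF5, FOXA1, HNF4A and TP63. Their highest counts in any library were 51, 13, 1 and 1. RefSeq windows (GRCh38.p14) of 250 bases before an annotated start were matched by symbol for 5 of the 8 factors, namely GATA6, HNF4A, FOXA1, KLF5 and TP63. None was matched for SOX9 or FOXA2, the members with the most reads, so no well-read gene stands beside the others. The sequences run 5′ to 3′ on the strand of the gene, and capitals mark each CpG, the dinucleotide that is methylated in silenced promoters. The windows are chr13:73054726-73054975 (+) and chr13:73058755-73059004 (+) for the annotated starts of KLF5, chr14:37595250-37595499 (-) for FOXA1, chr20:44355449-44355698 (+) for the upstream start of HNF4A and chr3:189631139-189631388 (+) for TP63.
KLF5, upstream start: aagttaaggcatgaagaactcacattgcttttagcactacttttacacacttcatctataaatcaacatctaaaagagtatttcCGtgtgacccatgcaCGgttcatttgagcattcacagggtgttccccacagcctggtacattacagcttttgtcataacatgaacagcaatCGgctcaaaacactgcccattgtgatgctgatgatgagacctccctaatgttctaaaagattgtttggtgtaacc
KLF5, downstream start: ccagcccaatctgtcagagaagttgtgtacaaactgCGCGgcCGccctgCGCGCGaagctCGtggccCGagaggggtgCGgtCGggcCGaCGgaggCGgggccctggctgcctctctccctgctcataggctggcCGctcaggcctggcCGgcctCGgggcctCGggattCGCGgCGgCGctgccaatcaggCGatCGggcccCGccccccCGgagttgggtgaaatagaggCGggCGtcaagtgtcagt
FOXA1: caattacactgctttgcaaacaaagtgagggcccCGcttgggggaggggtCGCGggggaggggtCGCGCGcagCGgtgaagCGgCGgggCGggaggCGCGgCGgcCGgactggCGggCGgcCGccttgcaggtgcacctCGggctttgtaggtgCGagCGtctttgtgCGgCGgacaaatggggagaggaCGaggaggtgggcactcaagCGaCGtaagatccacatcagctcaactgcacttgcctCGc
HNF4A, upstream start: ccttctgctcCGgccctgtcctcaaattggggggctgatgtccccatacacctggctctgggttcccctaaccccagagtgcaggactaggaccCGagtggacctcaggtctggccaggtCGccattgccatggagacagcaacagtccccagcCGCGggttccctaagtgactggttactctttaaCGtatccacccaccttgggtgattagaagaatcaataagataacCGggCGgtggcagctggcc
TP63: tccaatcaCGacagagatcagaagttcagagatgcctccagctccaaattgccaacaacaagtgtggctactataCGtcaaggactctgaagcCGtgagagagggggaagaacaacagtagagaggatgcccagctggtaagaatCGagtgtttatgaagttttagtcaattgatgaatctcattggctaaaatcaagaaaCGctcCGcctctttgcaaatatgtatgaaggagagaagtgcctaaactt

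The downstream window of KLF5 held 27 CpG and that of FOXA1 held 26, more than 82.3% and 80.4% of the 35116 windows of this length. The window of GATA6 held 16. The windows of HNF4A held 8 at either start and that of TP63 held 6, below the median of 11 over all windows, and the upstream window of KLF5 held 3. The window of TP63 lies before the 5′ end of the gene, and no other window was matched for it. The letters GGGCGG, a GC box on either strand, occurred at 2 positions in the windows of FOXA1 and of the downstream start of KLF5 and at 1 in each window of HNF4A, and were in 42.6% of all windows. TATAAA on either strand occurred in the upstream window of KLF5 and in 10.7% of all windows. The counts do not tell which start was used, and these matches are descriptions.

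Depth was similar, with gene counts totalling 11300766 (control), 12861693 (Rg3) and 11321442 (TAM). For a gene with no read, this depth leaves room for up to 3 counts. RNA came from whole cultures, so fewer cells with a transcript and less transcript per cell cannot be told apart. Levels are given in RPKM, the reads of a gene per kilobase of its longest GENCODE 29 transcript and per 1e6 counted reads, and genes are compared with each other only on this scale.

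Of the 8 factors, 2 were read at a substantial level in PANC-1 cells. SOX9 (ENSG00000125398.6, chr17:72121020-72126420 in GRCh38) had 996, 916 and 723 counts in the control, Rg3 and TAM libraries. These were levels of 22.4, 18.1 and 16.2 RPKM. FOXA2 (ENSG00000125798.14, chr20:22581005-22585455) had 382, 366 and 266 counts, or 14.0, 11.7 and 9.70 RPKM. KLF5 (ENSG00000102554.13, chr13:73054976-73077542) was low, with 31, 51 and 30 counts, or 0.769, 1.11 and 0.743 RPKM. In each library SOX9 stood above FOXA2, FOXA2 above KLF5, and KLF5 above every other member.

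The remaining 5 factors were near the limit of detection. GATA6 (ENSG00000141448.8, chr18:22169443-22202528) had 12, 10 and 5 counts in the control, Rg3 and TAM libraries. FOXA1 (ENSG00000129514.5, chr14:37589984-37596059) had 3, 13 and 3. PDX1 (ENSG00000139515.5, chr13:27920020-27926231) had 5, 0 and 1. TP63 (ENSG00000073282.12, chr3:189631416-189897279) had 1, 0 and 0 counts, and HNF4A (ENSG00000101076.16, chr20:44355700-44434596) had 0, 0 and 1. HNF4A and TP63 thus did not exceed 3 counts in any library, and the upper 95% limits of their levels in the control library were 0.0506 and 0.100 RPKM.

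**Figure D1:**
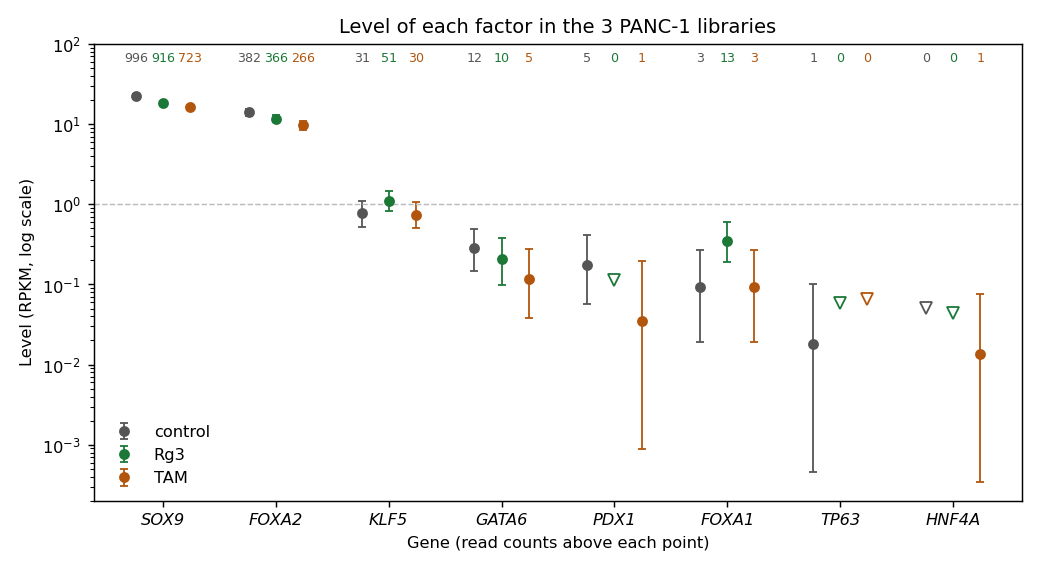
Level of each of the 8 factors (RPKM, log axis) in the control, Rg3 and TAM libraries, with the read counts printed above. Bars are exact 95% Poisson intervals, open triangles mark the upper limit of a library with no read, and the dashed line is 1 RPKM. In the control library, SOX9 and FOXA2 sit above 1 RPKM and the other 6 below it.

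The order of levels in the control library was SOX9, FOXA2, KLF5, GATA6, PDX1, FOXA1, TP63 and HNF4A. SOX9 was 1.60 times as high as FOXA2 per kilobase (95% interval 1.42 to 1.81). FOXA2 was 18.1 times as high as KLF5 (12.6 to 27.1), and KLF5 was 2.73 times as high as GATA6 (1.36 to 5.84). Below KLF5, no neighbor in the order differed from the next beyond counting error: the ratio of GATA6 to PDX1 had an interval from 0.522 to 5.77 and that of PDX1 to FOXA1 an interval from 0.371 to 12.3. In the Rg3 library FOXA1 followed KLF5, with 0.353 RPKM, above GATA6 with 0.206 RPKM, and this step was also within counting error (ratio interval 0.694 to 4.36).

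For the comparisons between libraries, counts were scaled by edgeR's TMM factors, and comparisons were limited to genes reaching 10 counts in 1 of the libraries or both. A gene was called higher or lower when its fold was over 1.5 or under 0.67 and the exact two-sided binomial test on its reads, adjusted by the Benjamini-Hochberg method over all genes compared, passed 0.05. That test compares 2 libraries, not 2 conditions. Of the 8 factors, 5 could be compared between the Rg3 and control libraries, and 0 were called higher and 0 lower, where 20.5% of the 16487 genes compared were called higher and 15.8% lower. Between the TAM and control libraries 4 could be compared, again with 0 higher and 0 lower, where 14.0% of 16079 genes were called higher and 18.4% lower. These comparisons share the control library. Between the Rg3 and TAM libraries, 5 could be compared and 0 were called in either direction, where 30.8% of 16493 genes were higher and 27.2% lower in the Rg3 library. The counting intervals of SOX9 and FOXA2 excluded no change in both comparisons with the control library, at sizes under the fold limits. The fold interval of FOXA2 with Rg3, 0.660 to 0.884, reached just past the lower limit. With 31 or fewer counts in the control library, the intervals of KLF5, GATA6 and FOXA1 were wide enough to hold folds past the limits. Those of KLF5 were 0.823 to 2.12 with Rg3 and 0.653 to 1.91 with TAM. The median log2 fold change of the members compared was -0.39 with Rg3 and -0.29 with TAM, beside 0.04 and -0.02 over all genes. PDX1, HNF4A and TP63 never reached 10 counts and were not compared.

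SOX9 differed by a log2 fold change of -0.45 between the Rg3 and control libraries (95% interval -0.58 to -0.32) and of -0.26 between TAM and control (-0.40 to -0.12). Both treated libraries therefore held slightly fewer normalised reads of SOX9, by less than the limit. Between Rg3 and TAM the difference was -0.19 (-0.33 to -0.05), and with division by library totals it was 0.16, of the other sign. TMM scaling put each log2 fold change 0.14 lower for Rg3 against control, 0.21 higher for TAM against control and 0.35 lower for Rg3 against TAM than library totals did.

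FOXA2 differed by -0.39 (-0.60 to -0.18) with Rg3 and by -0.32 (-0.55 to -0.09) with TAM on the same log2 scale, close to the values of SOX9. The difference between Rg3 and TAM was -0.07 (-0.30 to 0.16), and with library totals it was 0.28. LINC00261, a noncoding RNA transcribed beside FOXA2 in endoderm, had 58, 52 and 32 counts in the control, Rg3 and TAM libraries. Its log2 fold changes were -0.48 (-1.05 to 0.08) and -0.65 (-1.32 to -0.00), and neither was called, although it was called lower with TAM by library totals and with Rg3 after a correction for GC content and length. Of the other neighboring noncoding RNAs, SOX9-AS1 had 5, 3 and 9 counts, GATA6-AS1 had 1, 2 and 0, HNF4A-AS1 and PDX1-AS1 had 0 in each library, and TP63-AS1 was not found by name.

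KLF5 had its highest count in the Rg3 library, with a log2 fold change of 0.39 against the control library and an interval from -0.28 to 1.08 that reaches both signs. With TAM it was 0.16 (-0.62 to 0.93). GATA6 was -0.59 (-1.96 to 0.75) with Rg3 and -1.06 (-2.91 to 0.55) with TAM. In GATA6, 12.5% of the stretches of 50 bases also occur in GATA6-AS1 or another transcript on the opposite strand, and the sources used here do not say whether strand was used in counting.

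FOXA1 showed the largest ratio among the members, 13 counts in the Rg3 library against 3 in the control library. The normalised ratio was 3.46, a log2 fold change of 1.79 with an interval from -0.07 to 4.24, and the adjusted p of the exact binomial test was 0.0699, so that FOXA1 was not called. Against the TAM library, also with 3 counts, the log2 fold change was 1.58 (-0.28 to 4.03), with an adjusted p of 0.104 by the same exact test. With library totals FOXA1 was called higher in both comparisons, with a log2 fold change of 1.93 in each. Exons of FOXA1 overlap TTC6 on the opposite strand, and no read was counted on TTC6 in any library.

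**Figure D2:**
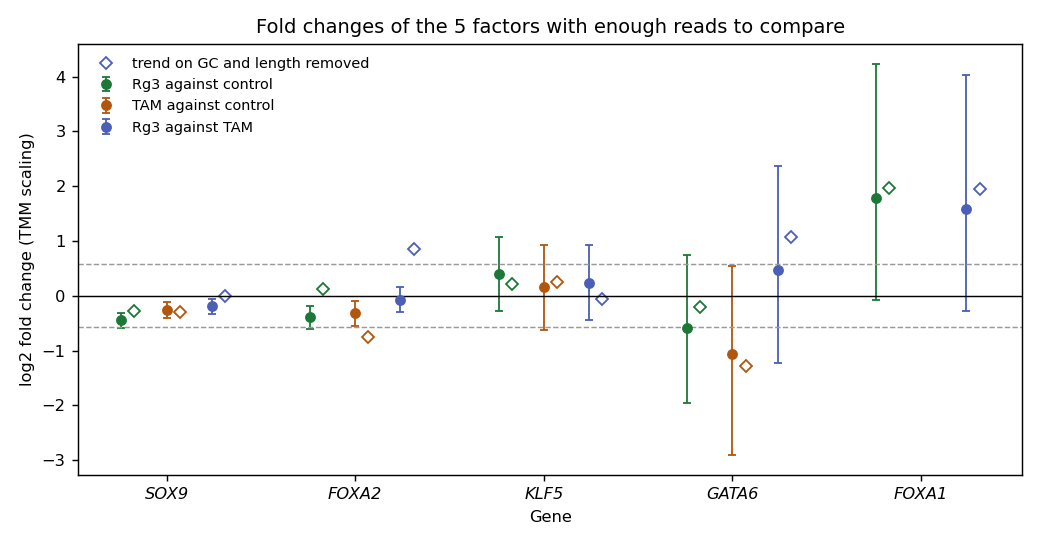
The log2 fold changes (TMM scaling) of the 5 factors that could be compared, for Rg3 against control, TAM against control and Rg3 against TAM, with exact 95% counting intervals. Open diamonds are the values after a trend on GC content and length was removed, and dashed lines are folds of 1.5 and 0.67. SOX9 and FOXA2 have narrow intervals between the limits or across the lower limit, and GATA6 and FOXA1 have wide ones. FOXA1 has no value for TAM against control, with 3 counts in each.

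Fold changes across all genes moved with the base composition of the transcripts, and the members differ in it. Spearman's rho between the log2 fold change and GC content was -0.81 over 11583 genes with at least 50 counts for Rg3 and 0.51 over 11022 genes for TAM, as a description of single libraries. The longest transcript of FOXA2 has 58.2% GC, that of GATA6 55.3%, FOXA1 51.3%, SOX9 51.0% and KLF5 47.0%. Genes with 55 to 60% GC had a median log2 fold change of -0.46 with Rg3 and 0.34 with TAM, so that the -0.39 of FOXA2 with Rg3 lay near the median of such genes. Its -0.32 with TAM lay below their median and within their 10th to 90th percentile, -0.45 to 0.86.

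When a smooth trend on GC content and length was removed, FOXA2 changed most among the members. Its log2 fold change with Rg3 went from -0.39 to 0.12. With TAM it went from -0.32 to -0.76 and FOXA2 was called lower, and between Rg3 and TAM it went from -0.07 to 0.86 and was called higher in the Rg3 library. SOX9 kept its sign against the control library, at -0.28 with Rg3 and -0.30 with TAM, and was at -0.01 between Rg3 and TAM. FOXA1 went to 1.97 with Rg3, not called, and to 1.95 between Rg3 and TAM, called higher. With the trend removed, 701 of 14279 genes were called higher with Rg3 and 985 lower, and 1336 of 14019 were higher with TAM and 1690 lower. Whether the trend arose in the cells or in the making of single libraries cannot be told apart with 1 library for each condition.

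**Figure D3:**
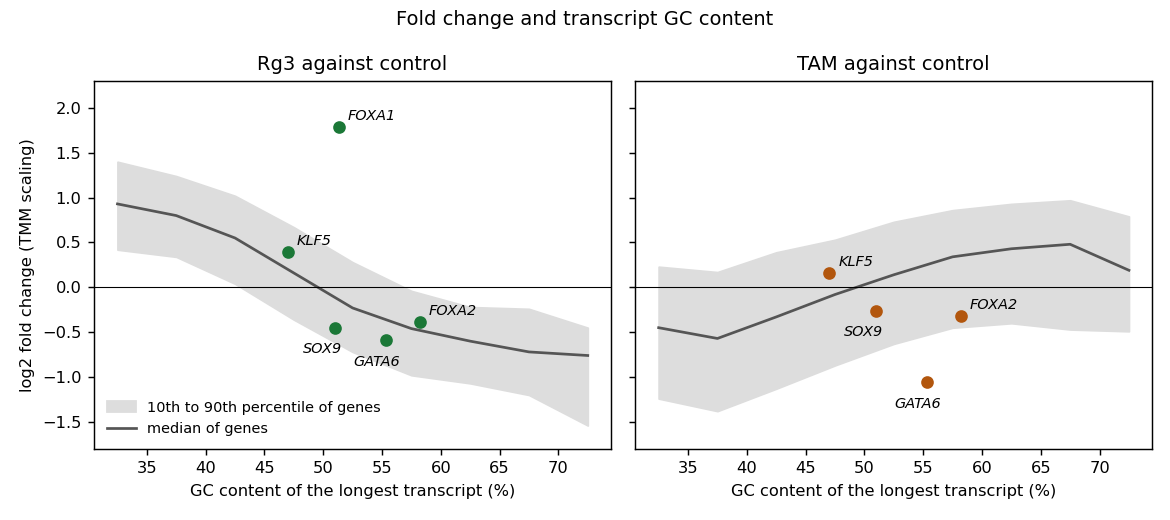
The log2 fold change (TMM scaling) of the members against the GC content of their longest transcript, for Rg3 (left) and TAM (right) against control. The line is the median and the band the 10th to 90th percentile of genes with at least 50 counts, in bins of 5% GC. With TAM, SOX9 and FOXA2 lie under the median line, and GATA6, with 5 and 12 counts, lies under the band.

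GATA6, KLF5 and TP63 had relatives that were read at higher levels, whereas SOX9 and FOXA2 stood above their listed relatives. GATA4, a close relative of GATA6 in pancreatic development, had 397, 357 and 714 counts in the control, Rg3 and TAM libraries, or 10.3, 8.13 and 18.5 RPKM, where GATA6 had 0.282, 0.206 and 0.117 RPKM. GATA4 was called higher with TAM, with a log2 fold change of 1.05 (0.87 to 1.23), and was -0.48 (-0.69 to -0.27) with Rg3, not called. GATA2, best known from blood cells, was called higher with TAM at 1.10 (0.85 to 1.36) and lower with Rg3 at -0.97 (-1.31 to -0.64). GATA5 was called lower with both, from 41 counts to 23 and 14, and GATA3 was called lower with Rg3, from 30 counts to 14. FOXA3 had 9, 9 and 11 counts. SOX8 had 51, 33 and 53, was called lower with Rg3 (-0.95, -1.63 to -0.29), and SOX10 had at most 1 count. TP73, a relative of TP63, had 126, 89 and 94 counts and was called lower with Rg3 (-0.83, -1.24 to -0.43). Of the CDX genes listed, CDX2 had the most control counts, with 16, 8 and 17 in the 3 libraries. It was -1.33 (-2.76 to -0.02) with Rg3 and 0.29 (-0.78 to 1.37) with TAM, neither called. HNF4G had no read in any library. In the KLF family, KLF16 had 20.5 RPKM in the control library, KLF6 15.5, KLF10 14.1 and KLF13 13.4, against 0.769 for KLF5. Some KLF genes were below KLF5 there, among them KLF12 (0.458) and KLF17, with no read.

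Of the 29 listed relatives, 18 could be compared for Rg3, with 2 called higher and 6 lower, and 20 for TAM, with 4 higher and 8 lower. The median log2 fold changes were -0.26 and -0.33, beside 0.04 and -0.02 over all genes compared. Over all genes compared, 20.5% were called higher and 15.8% lower with Rg3, and 14.0% and 18.4% with TAM. Among the KLF genes, KLF12 (1.09, 0.64 to 1.57) and KLF9 (0.61, 0.07 to 1.16) were called higher with Rg3, and KLF12 (-1.33), KLF6 (-1.03) and KLF10 (-0.90) were among the KLF genes called lower with TAM. KLF16 went the other way, at -0.79 with Rg3 and 0.79 with TAM. KLF17 had 0, 0 and 11 counts and was called higher with TAM. Without the GC and length trend, 0 relatives were called with Rg3, and with TAM 3 were higher, among them GATA4 (0.66) and GATA2 (0.72), and 4 lower.

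**Figure D4:**
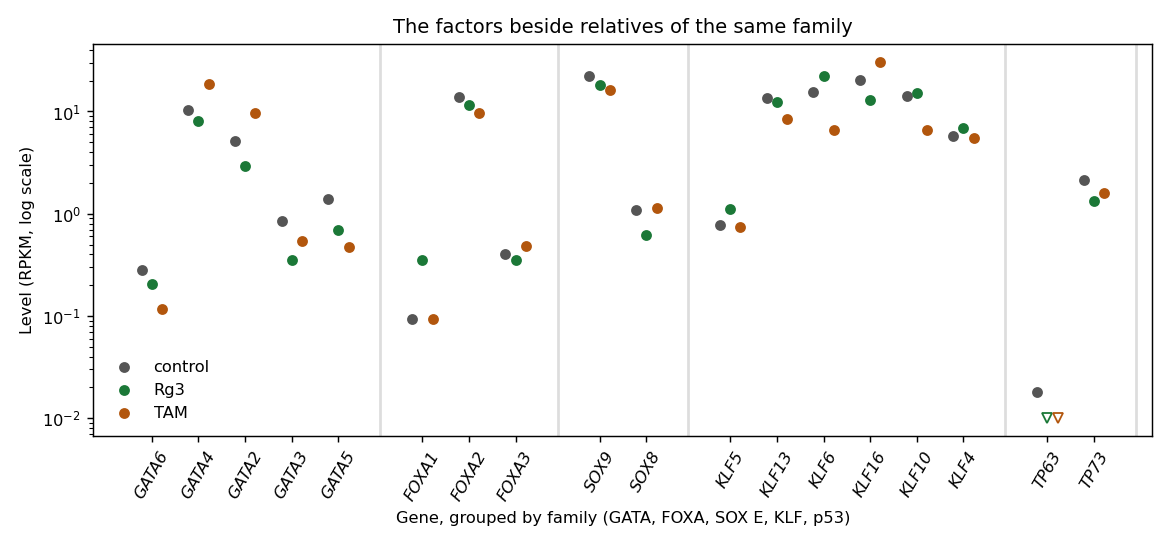
Levels (RPKM, log axis) of GATA6, FOXA1, FOXA2, SOX9, KLF5 and TP63 beside relatives of the same family, in the control, Rg3 and TAM libraries. Open triangles at the lower edge mark libraries with no read. GATA4 and GATA2 lie above GATA6 in each library, FOXA2 above FOXA1 and FOXA3, SOX9 above SOX8, and the 5 other KLF genes plotted above KLF5.

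Other factors of pancreatic development were read unevenly. Of 13 progenitor and ductal factors, 6 had under 10 counts in every library. In the TAM library 3 of 7 compared were called higher and 1 lower, beside 14.0% and 18.4% of all genes. They were HES1, the Notch target that holds progenitors undifferentiated (175, 170 and 370 counts, log2 fold change 1.29, 1.02 to 1.55), GATA4, MNX1 with 15 and 31 counts, and MEIS2, which was lower (-0.96, -1.53 to -0.41). In the Rg3 library 1 of 6 was called higher and 0 lower, beside 20.5% and 15.8% of all genes. It was ONECUT2, which went from 11 to 46 counts. The list's median log2 fold change was 0.44 with Rg3 and 0.50 with TAM, beside 0.04 and -0.02 over all genes. Without the trend, MEIS2 (-0.42) and MNX1 (0.80) were no longer called with TAM, and MNX1 (1.26, from 15 to 27 counts) was called higher with Rg3. Of 13 endocrine factors, 12 had under 10 counts in every library. The exception was SOX4, which is also read widely outside the islet, with 439, 377 and 163 counts, and it was called lower with TAM (-1.22, -1.49 to -0.96). The 4 acinar factors had at most 3 counts each.

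Factors of epithelial and mesenchymal state moved in more than 1 direction. Among all genes compared, 15.8% were called lower and 20.5% higher with Rg3, and 18.4% and 14.0% with TAM. Their median log2 fold changes were 0.04 with Rg3 and -0.02 with TAM. Of 8 epithelial factors, 3 could be compared, and ELF3, an ETS factor of glandular epithelium, was called lower with Rg3 (-0.62, -0.82 to -0.42) and with TAM (-0.73, -0.97 to -0.50). With library totals the value of ELF3 with Rg3 was -0.48 and was not called. After removal of the trend it was -0.20. The medians of the 3 were -0.62 and 0.12. GRHL2, a factor that maintains epithelium, had no read. Of 9 mesenchymal factors, 7 could be compared. With TAM, ZEB1, a repressor of epithelial genes, was called lower, from 127 counts to 38 (-1.53), and SNAI1, another such repressor, was called higher, from 102 to 205 (1.21, 0.86 to 1.57). With Rg3, GLI2 (-0.72), SNAI1 (-0.71) and TWIST2 (-0.91, from 48 to 32 counts) were called lower and 0 higher. With library totals SNAI1 was not called with Rg3, and ZEB1 (0.64) was called higher. After removal of the trend, GLI2, SNAI1 and TWIST2 were at -0.10, -0.21 and -0.45 with Rg3. None of these 3 was then called, while PRRX1 (-2.33) was called lower. It had only 10 counts in the control and 4 in the Rg3 library. With the trend kept its value was -1.65 (-3.78 to 0.15), not called. With TAM, SNAI1 (0.71) and HMGA2 (0.81) were then higher and ZEB1 (-0.78) lower. The medians of the 7 were -0.71 and -0.05.

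Markers of the tumor subtypes that these factors govern were read unevenly. Of 24 classical markers, 22 had under 10 counts in every library and 14 had no read, and 0 were called in either comparison with the control library. The other 2 were AGR2, a secretory-pathway protein, with 1426, 2299 and 1388 counts, and LGALS4, a galectin of gut epithelium, with 6, 18 and 13. Without the trend, LGALS4 (1.75) was called higher with Rg3. Of 25 basal-like markers, 24 were in the table, 16 of them had under 10 counts in every library and 10 had no read. S100A2, a calcium-binding protein activated by p63 in squamous epithelium, had 303, 270 and 382 counts, where TP63 had 1, 0 and 0. With Rg3, 2 of 8 basal-like markers compared were called lower, TNS4 (203 to 16 counts) and KRT7 (248 to 93), and 0 higher, where 15.8% of all genes were lower and 20.5% higher. With TAM, KRT15 (0.99) and KRT7 (0.68) were called higher and TNS4 (-0.86) and CTSV (-0.79) lower, beside 14.0% and 18.4% of all genes. By library totals KRT7 (0.47) was not called with TAM. Without the trend, KRT7 (0.13) and CTSV (-0.34) were no longer called with TAM, and DHRS9 (-0.91) was called lower with Rg3. The median over the 8 was -0.37 with Rg3 and 0.05 with TAM, beside 0.04 and -0.02 over all genes.

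The label of a pancreatic, duct-derived line was checked against markers of cell types. The keratins KRT8 and KRT18 had 15329 and 11216 counts in the control library, KRT19 had 665 and KRT7 had 248, whereas the duct channel CFTR had no read in any library and SLC4A4 and AQP1 had at most 3. With Rg3, 5 of 7 ductal markers compared were called lower and 0 higher, beside 15.8% and 20.5% of all genes, namely KRT7 (-1.74), KRT19 (-1.52), KRT8 (-1.30), MUC1 (-1.10) and KRT18 (-0.93), next to a SOX9 value of -0.45. Without the trend, MUC1 (-0.26) and KRT18 (-0.50) were not called and ANXA4 (-0.78) was called lower. The median of the list was -1.10 with Rg3 and 0.09 with TAM, beside 0.04 and -0.02 over all genes. With TAM, 8 were compared, and 18.4% of all genes were called lower and 14.0% higher. KRT19 (-1.67) and EPCAM, with 26 and 8 counts, were called lower, and KRT7 (0.68) and CA2, with 2 and 12 counts, higher. KRT7 was not called with TAM by library totals (0.47) or without the trend (0.13), while the other 3 kept their calls. Acinar markers had 8 of 10 members with no read and summed to 3, 4 and 7 counts, all but 1 of them at no more than 3. Endocrine markers had 7 of 10 with no read, including INS, GCG and SST, and CHGB was called lower with Rg3 (93 to 61 counts), while 0 were called with TAM. Without the trend, CHGB (-0.64) was called lower with TAM as well. SYP had 296, 307 and 370 counts in the control, Rg3 and TAM libraries. Its log2 fold changes were -0.27 with Rg3 and 0.53 with TAM, neither called. The 5 markers of blood, vessel and stromal cells summed to 2, 3 and 2 counts.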

How the data were processed

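Total RNA of PANC-1 cells was purified and sequenced on an Ion Proton instrument, with 1 library for each of 3 conditions given by the labels. The authors checked the reads with FAST-QC, aligned them with TopHat and deposited raw read counts by gene symbol. The submitters' processing notes name GRCh38, and the counting tool, annotation and use of strand are not given in the sources used here. The members and gene lists were chosen with earlier results of these data known.

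TMM factors from edgeR 4.0.16 (R 4.3.3) were 1.016 for control, 1.120 for Rg3 and 0.879 for TAM. Fold changes, exact binomial tests and Clopper-Pearson intervals were computed in Python 3.11.15 with scipy 1.17.1. Folds used 3 in place of any smaller count and were skipped where neither library exceeded 3. The limma criteria of the study need replicates and could not be fitted. Transcript length, GC content, gene positions and shared stretches of 50 bases came from GENCODE 29, whose transcripts matched 86.6% of genes compared for Rg3 and 87.2% for TAM.

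Alternatives were library totals, DESeq2 1.42.0 size factors, minimums of 1 or 50 counts, a fold of 2, the exact test of edgeR under an assumed biological variation (BCV) of 0.2 or 0.4, removal of a loess trend (span 0.3, fitted at 50 or more counts) on GC content and length, and for levels the median transcript length or TMM library size. Named genes were the members and, from each list, at most 3 called genes in each direction with at least 50 counts, the relative with the most control counts in each family, and the 3 genes nearest to a member. Other genes, such as GATA3, GATA5, KLF17, MNX1, ONECUT2, TWIST2, EPCAM, CA2, AGR2, LGALS4, S100A2, ANXA4, DHRS9, PRRX1, HMGA2 and the markers at or near 0, were named after their values were seen. The steps were tested on simulated data.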

Additional observations from a re-analysis of the deposited data

How the results depend on the processing

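No paired analysis was possible because no group holds more than 1 sample, and for the same reason no replicate could be left out. Of 106 values of single members under 8 alternatives, 96 kept their direction and stayed uncalled, 4 became called and 6 changed sign. A value that stayed uncalled could still cross a fold limit, as GATA6 with Rg3 did, from -0.59 to -0.45 by library totals. FOXA2 between Rg3 and TAM with the trend removed is among the sign changes, although it also became called. Every change of sign or call among these values came from library totals or removal of the trend. The count minimums, the fold of 2 and the assumed variations do not alter a log2 fold change, so no sign could change under them. With 0 members called, a fold of 2 could not add a call. The assumed variations, under which fewer genes passed, could hardly add any. With library totals, 1 member was called higher with Rg3 and 1 between Rg3 and TAM, FOXA1 in each, and the sign changed for KLF5 with TAM (-0.05) and between Rg3 and TAM for SOX9 (0.16) and FOXA2 (0.28). With a minimum of 1 count, 1 member was called lower with Rg3, PDX1, which rests on 5 counts against 0. Once the GC and length trend was removed, 1 member was called lower with TAM, FOXA2, and 2 were called higher between Rg3 and TAM, FOXA1 and FOXA2. The sign then changed for FOXA2 with Rg3 (0.12) and between Rg3 and TAM (0.86) and for KLF5 between Rg3 and TAM (-0.05). DESeq2's size factors, a minimum of 50 counts, a fold of 2 and the assumed variations left 0 members called. Over all genes, calls for Rg3 were 71.4% higher with library totals and 56.4% with TMM scaling, those for TAM 20.6% and 43.1%, and those between Rg3 and TAM 71.0% and 53.1%. With an assumed variation of 0.2, the genes called in either direction came to 0.946% with Rg3, 2.95% with TAM and 30.9% between Rg3 and TAM. SOX9 and FOXA2 were the 2 members over 1 RPKM in the control library with TMM library sizes, and with the median transcript length there were 3, KLF5 being the other.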

Other observations

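Genes whose pair of log2 fold changes, with Rg3 and with TAM, lay nearest to a member were looked up among genes with 0.5 to 2 times its control count. Over these 3 libraries, the nearest to SOX9 were RAPGEF1, AP2A1 and NAT10, of 3198 candidates, at distances of 0.0210, 0.0358 and 0.0375 on the log2 scale, and 150 candidates lay within 0.25. Their counts in the control, Rg3 and TAM libraries were 1314, 1191 and 953 for RAPGEF1, 1380, 1301 and 1003 for AP2A1, and 987, 887 and 708 for NAT10. The nearest to FOXA2 were XRCC6P2, a pseudogene that can share reads with XRCC6, IER5 and ATXN7L3B, of 4639 candidates, at 0.0167, 0.0367 and 0.0445, with 159 within 0.25. The patterns of SOX9 and FOXA2 were thus not theirs alone, as 150 of 3198 and 159 of 4639 candidates lay within 0.25. How many genes lie that near to other genes was not tested.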
